A study of Mus musculus with 6 samples.

Results

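The 37 genes described here encode parts of the centromere, the kinetochore and the spindle assembly checkpoint, together with the kinases and cohesion protectors that act there. Each was found by its name in the deposited mRNA table, with 1 set of values per gene identifier, and they make up 37 of the 21954 genes in that table. The samples were whole thymuses of wild-type C57BL mice aged 5 weeks. Of the 6 libraries, 3 came from mice exposed to 6 Gy of X-rays, whose thymuses were taken 24 h later, and 3 from unexposed control mice. All mice were killed with pentobarbital. No other treatment separates the groups in the labels, and no genotype other than wild type is named. The labels number the libraries 1 to 3 in each group without tying them to named mice. The p-values below thus rest on the variation between these libraries.

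The centromere is the stretch of a chromosome marked by the histone variant CENP-A, and a constitutive network of CENP proteins sits on it throughout the cell cycle. In mitosis the KNL1, MIS12 and NDC80 complexes assemble on that network as the outer kinetochore and bind spindle microtubules, and the spindle checkpoint holds back anaphase while any kinetochore is unattached. Most of these genes are transcribed in dividing cells late in the cell cycle, and in the thymus the dividing cells are mainly immature thymocytes, which are also known to die readily after irradiation.

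Values are FPKM, the authors' fragments per kilobase of transcript scaled to library depth, so levels can be compared between genes per unit of length. Log2 fold changes are irradiated minus control on the scale of log2(FPKM + 0.1), and a gene is called lower or higher where limma gave an adjusted p under 0.05 over all 14001 genes that averaged at least 0.5 FPKM. All 37 genes passed that filter. Each also averaged at least 0.5 FPKM in the irradiated libraries alone and in the control libraries alone, and none was at 0 in any library. Estimated depth was 24449878 to 25575448 fragments in the irradiated libraries and 21929825 to 23201856 in the control libraries. At that depth, and taking the longest listed transcript of each gene, every irradiated value of the 37 genes corresponded to at least about 23 fragments. The same estimate for control values was at least about 96 fragments. For genes with several listed transcripts the true number may be lower, since a shorter transcript gives fewer fragments at the same FPKM.

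The tissue changed as a whole between the groups. The 15 double-positive thymocyte markers were all lower, where 20.9% of all genes tested were lower. Of these, Rag2 averaged 0.290 FPKM in irradiated thymus and passed the filter only through the controls, so its call is a description. The summed level of the 15 markers was 232.2 to 353.0 FPKM in irradiated thymus against 3224 to 3617 FPKM in control thymus. Among them Rag1, a recombinase of immature lymphocytes, had 1.97, 0.511 and 2.32 FPKM in irradiated libraries against 511.4, 540.4 and 592.1 FPKM in control libraries. All 10 macrophage markers and all 8 fibroblast markers were higher, where 42.4% of all genes tested were higher. The macrophage markers summed to 1735 to 1953 FPKM in irradiated thymus and 268.3 to 365.0 FPKM in control thymus. The fibroblast markers summed to 704.2 to 770.9 FPKM in irradiated thymus and 72.5 to 96.6 FPKM in control thymus. Irradiated replicate 2 stood apart in markers of neighbouring tissue. Its erythroid, skeletal muscle and airway markers summed to 3144, 135.3 and 3298 FPKM, against 19.2 to 506.5, 4.01 to 29.3 and 103.1 to 120.3 FPKM in the other irradiated libraries and 69.1 to 93.1, 6.01 to 6.71 and 12.0 to 15.5 FPKM in the control libraries. No marker of these lists was at 0 in every library of a group. Irradiated replicate 1 lay nearest to the controls, with a Pearson r across all tested genes of 0.807 to 0.815 against them, compared with 0.619 to 0.622 for irradiated replicate 2 and 0.710 to 0.711 for irradiated replicate 3.

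Of the 37 genes, 35 were lower in irradiated thymus, 0 were higher (limma; also 0 at an unadjusted p under 0.05), and Cenpt and Zwint did not pass. Over all genes tested, 20.9% were lower and 42.4% were higher, with a median log2 fold change of 0.40. The median of the 37 genes was -2.51, or -2.92 relative to the median of all genes. A fall of at least 1 on the log2 scale was called for 34 of them, of at least 2 for 27 and of at least 3 for 11, whereas 10.3%, 3.36% and 1.32% of all genes tested fell that far. In 35 of the 37 every irradiated library was below every control library, which held for 24.7% of all genes tested, and the groups were apart in either direction for 70.8%. The authors' deposited table also had 35 of the 37 lower at an adjusted p under 0.05 and 0 higher, against 14.0% lower and 32.5% higher over all genes with an adjusted p there. With irradiated replicate 2 left out, 35 were again lower and the median was -2.21.

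Summed over the 37 genes, the level was 180.7, 110.3 and 146.4 FPKM in irradiated libraries against 611.0, 579.5 and 539.4 FPKM in control libraries. The means were 145.8 ± 35.2 FPKM in irradiated thymus and 576.6 ± 35.9 FPKM in control thymus (SD, n = 3 each). Each irradiated library thus held between 19.1% and 31.3% of the control mean, while the summed thymocyte markers held between 6.78% and 10.3%. Zwint made up 18.9% to 26.5% of the irradiated sums and 4.12% to 5.22% of the control sums. For Bub3 the shares were 9.10% to 17.2% and 4.65% to 5.64%, so both genes raise the percentage kept by the sum. In bulk tissue, fewer cells of a type and less RNA per cell cannot be told apart, and the part of thymocyte number in these values was not tested.

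The median of all genes was 0.40 as deposited, -0.07 after quantile normalization, 0.02 after median-ratio scaling and 0.31 with equal summed FPKM. Over all genes the test called 2920 lower and 5933 higher as deposited, 4403 lower and 3501 higher after quantile normalization, and 4558 lower and 4655 higher after median-ratio scaling. The number of the 37 genes called lower stayed between 35 and 36 under each of these scalings, and their median lay between -3.17 and -2.91 relative to the median of all genes.

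**Figure D1:**
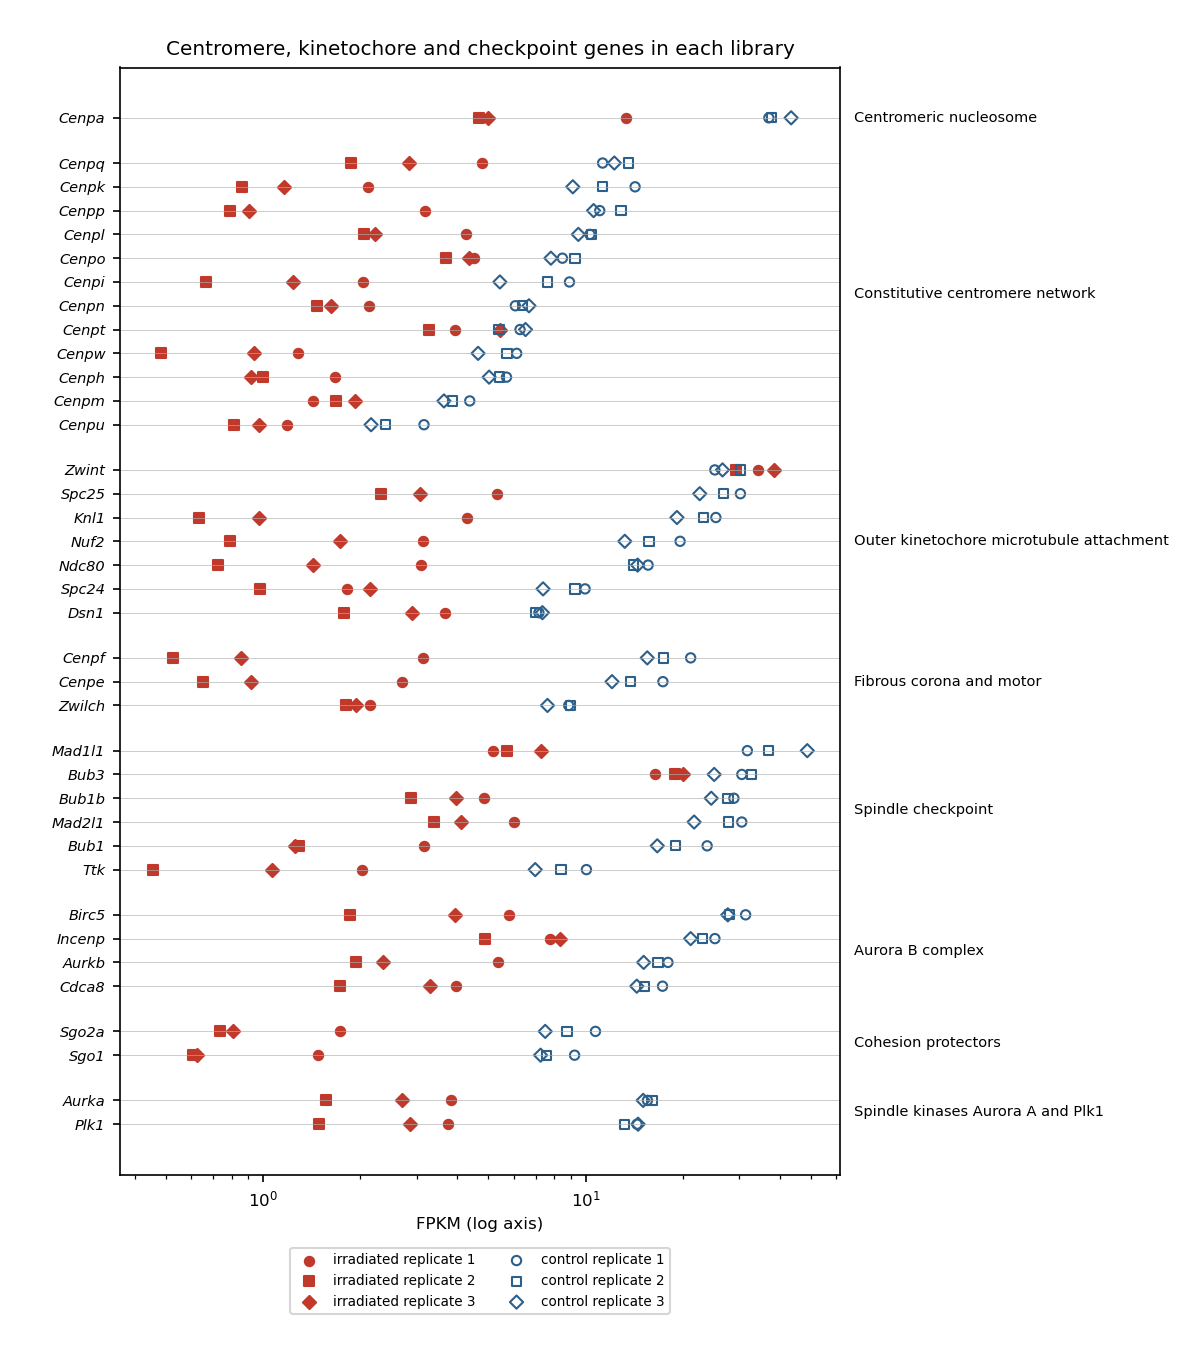
FPKM of each of the 37 genes in every library on a log axis, grouped by role and ordered by control level; filled red symbols are the 3 irradiated libraries and open blue symbols the 3 control libraries. The irradiated symbols lie left of all control symbols for 35 genes, and the groups overlap for Cenpt and Zwint.

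Promoters are shown because the genes fell together and many of their promoters share short motifs. RefSeq (GRCm38.p6) gave 300-base windows, 250 bases before to 50 after an annotated start, for 33 of the 37 genes, in 38 windows. Aurkb, Incenp, Spc24 and Zwilch had none in that table. The letters searched on both strands were TTTGAA and TTCGAA, forms of the cell cycle genes homology region (CHR, an element bound by the DREAM and MuvB complexes), CCAAT (the box bound by NF-Y), and GGCGGGA and GCGCCAA (E2F-type sites). The windows below belong to the genes with the smallest adjusted p in 4 different role groups among those with a CHR form or a CCAAT box. Capitals mark these motifs as read on the printed strand, so a CCAAT box on the other strand reads ATTGG and a TTTGAA reads TTCAAA.
Bub1b promoter: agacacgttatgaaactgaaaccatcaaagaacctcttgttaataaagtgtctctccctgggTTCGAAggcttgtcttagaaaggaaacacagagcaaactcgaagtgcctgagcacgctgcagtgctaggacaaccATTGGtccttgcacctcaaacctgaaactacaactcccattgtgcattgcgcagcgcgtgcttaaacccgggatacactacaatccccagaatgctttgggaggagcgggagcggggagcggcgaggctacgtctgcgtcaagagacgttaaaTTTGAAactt
Spc25 promoter: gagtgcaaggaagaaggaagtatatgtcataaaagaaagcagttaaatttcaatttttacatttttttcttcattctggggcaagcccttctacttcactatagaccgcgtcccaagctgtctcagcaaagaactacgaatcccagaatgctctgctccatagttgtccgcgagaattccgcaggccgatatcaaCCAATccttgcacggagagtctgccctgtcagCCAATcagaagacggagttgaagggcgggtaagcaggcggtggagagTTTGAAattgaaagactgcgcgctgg
Cenpn promoter: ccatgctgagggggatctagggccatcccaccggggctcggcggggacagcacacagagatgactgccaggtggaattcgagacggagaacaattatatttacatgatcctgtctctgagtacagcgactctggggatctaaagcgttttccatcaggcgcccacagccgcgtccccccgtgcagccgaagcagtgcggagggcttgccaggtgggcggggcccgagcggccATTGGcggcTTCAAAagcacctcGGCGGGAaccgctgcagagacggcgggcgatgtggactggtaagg
Sgo1 promoter: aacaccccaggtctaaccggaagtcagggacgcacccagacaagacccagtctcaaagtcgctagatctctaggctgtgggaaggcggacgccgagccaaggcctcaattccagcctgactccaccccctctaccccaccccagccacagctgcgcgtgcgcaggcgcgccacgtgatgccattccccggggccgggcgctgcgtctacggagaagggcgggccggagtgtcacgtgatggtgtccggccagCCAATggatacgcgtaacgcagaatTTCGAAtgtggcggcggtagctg
These windows lie at chr2:118597961-118598260 on the plus strand for Bub1b, chr2:69206164-69206463 on the minus strand for Spc25, chr8:116921490-116921789 on the plus strand for Cenpn and chr17:53689266-53689565 on the minus strand for Sgo1.

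A CHR form was present in 18 of the 38 windows (47.4%), against 19.2% of all 32851 promoter windows of the same length. A CCAAT box was present in 27 windows (71.1%, against 37.4% of all), and an E2F-type site in 13 (34.2%, against 13.2%). A CHR form and a CCAAT box stood together in 16 windows (42.1%, against 7.52%). Counted by gene, 17 of 33 held a CHR form, 23 a CCAAT box, 13 an E2F-type site and 15 a CHR form with a CCAAT box. The pair of Bub3 windows overlaps and holds the same sites. The shares of all promoters are by window. In the 50 bases after the start, a region looked at after the matches were seen, 12 windows held a CHR form (31.6%, against 2.46%). In the printed examples the CHR form nearest the start covers bases 291 to 296 of the window in Bub1b, 275 to 280 in Spc25, 242 to 247 in Cenpn and 278 to 283 in Sgo1, where base 251 is the annotated start. None of the motifs was found in 5 windows (13.2%, against 43.6%), those of Nuf2, Cenpp, Mad2l1, Cenpt and 1 of the pair of Mad1l1 windows. The genes that changed least did not share a motif pattern: both Bub3 windows held a CHR form and a CCAAT box, the Zwint window held a CCAAT box and an E2F-type site, and the Cenpt window held none. A match is a description of letters in a window and was not tested against the fold changes.

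At the centromere itself, Cenpa, the histone H3 variant that marks it (ENSMUSG00000029177, chr5:30666777-30674830 on the plus strand of GRCm38), had the highest control level per length of the 37 genes. Cenpa had 13.4, 4.68 and 4.98 FPKM in irradiated libraries against 37.02, 37.6 and 43.4 FPKM in control libraries. Irradiated replicate 1 was well above the other two irradiated libraries, and all 3 were below every control. The log2 fold change of Cenpa was -2.51 ± 0.38 (SE, adjusted p = 0.00129 by limma).

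The constitutive network, which links the centromeric nucleosome to the outer kinetochore, was lower in 11 of 12 genes, beside 20.9% of all genes tested. The median of the network was -1.95, against 0.40 over all genes tested. Its members did not move equally. Cenpk, of the CENP-H, CENP-I, CENP-K and CENP-M subcomplex, had 2.12, 0.858 and 1.16 FPKM in irradiated libraries against 14.2, 11.3 and 9.13 FPKM in control libraries, a log2 fold change of -3.05 ± 0.34 (SE). Its partners Cenpi and Cenph fell by 2.48 and 2.12 on the log2 scale. Cenpm, the small GTPase-like subunit of the same subcomplex, had 1.43, 1.68 and 1.93 FPKM in irradiated libraries against 4.38, 3.87 and 3.64 FPKM in control libraries. Cenpm fell by 1.20 (SE 0.21, adjusted p = 0.00225), and its irradiated replicate 1 was the lowest of the irradiated libraries rather than the highest.

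The CENP-L and CENP-N pair, which contacts CENP-A, fell by similar amounts. Cenpn, whose promoter is printed above, had 2.13, 1.48 and 1.63 FPKM in irradiated libraries against 6.06, 6.38 and 6.68 FPKM in control libraries. The log2 fold changes were -1.83 ± 0.20 for Cenpn and -1.87 ± 0.28 for Cenpl (SE). In the CENP-O, CENP-P, CENP-Q and CENP-U subcomplex the spread was wider. Cenpp had 3.17, 0.789 and 0.905 FPKM in irradiated libraries against 11.1, 12.9 and 10.6 FPKM in control libraries and fell by 3.02 (SE 0.48). Cenpo had 4.52, 3.69 and 4.34 FPKM in irradiated libraries against 8.48, 9.27 and 7.81 FPKM in control libraries and fell by 1.01 (SE 0.16). Cenpq and Cenpu lay between them, with falls of 2.03 and 1.29. Cenpu had the lowest control level of all 37 genes, 2.57 ± 0.52 FPKM (SD, n = 3).

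Cenpt, which binds DNA together with Cenpw and recruits the NDC80 complex, was the member of the network that did not pass (ENSMUSG00000036672, chr8:105844673-105853278 on the minus strand). Cenpt had 3.93, 3.28 and 5.42 FPKM in irradiated libraries against 6.27, 5.39 and 6.52 FPKM in control libraries. Irradiated replicate 3 lay above control replicate 2, so the groups overlapped. The log2 fold change was -0.54 (95% interval -1.06 to -0.02 before adjustment, adjusted p = 0.0653), and the authors' deposited table gave -0.94 with an adjusted p of 0.0510. The call depended on the processing: Cenpt was lower at -1.27 (adjusted p = 0.0107) after quantile normalization, at -0.92 (0.00810) after median-ratio scaling and at -0.73 (0.0198) without irradiated replicate 3. Its partner Cenpw had 1.28, 0.483 and 0.935 FPKM in irradiated libraries against 6.12, 5.71 and 4.65 FPKM in control libraries and fell by 2.56 (SE 0.35, adjusted p = 0.000762).

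The outer kinetochore, which binds microtubules, was lower in 6 of 7 genes, beside 20.9% of all genes tested. Its median was -2.93, and by the limma estimates it held both ends of the range. Knl1, the scaffold that docks the checkpoint kinase BUB1 and the BUB3 protein (ENSMUSG00000027326, chr2:119047119-119105501 on the plus strand), had the lowest limma estimate of all 37 genes. That rank did not hold in the authors' deposited table, which gave -3.78 for Knl1, -4.02 for Cenpf and -3.93 for Bub1. Knl1 had 4.29, 0.633 and 0.972 FPKM in irradiated libraries against 25.4, 23.2 and 19.2 FPKM in control libraries. The log2 fold change was -3.90 ± 0.61 (SE, adjusted p = 0.00144). Its irradiated libraries spanned 2.58 on the log2 scale against 0.40 for the control libraries, and irradiated replicate 1 kept 19.0% of the control mean where irradiated replicate 2 kept 2.80%.

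The 4 subunits of the NDC80 complex, the main microtubule coupler, all fell, where 20.9% of all genes tested were lower. Ndc80 had 3.10, 0.727 and 1.43 FPKM in irradiated libraries against 15.6, 14.1 and 14.5 FPKM in control libraries. Ndc80 and its partner Nuf2 had almost the same log2 fold change, -3.22 ± 0.45 and -3.21 ± 0.45 (SE). Spc24 and Spc25 form the end of the complex that anchors it to the kinetochore. Spc25, with a CHR form and a pair of CCAAT boxes in the window above, had 5.31, 2.32 and 3.07 FPKM in irradiated libraries against 30.2, 26.8 and 22.6 FPKM in control libraries and fell by 2.93 (SE 0.30). Spc24 fell by 2.41 (SE 0.30). Dsn1, of the MIS12 complex that joins NDC80 to the centromere, had 3.66, 1.78 and 2.89 FPKM in irradiated libraries against 7.17, 7.03 and 7.35 FPKM in control libraries and fell by 1.40 (SE 0.27, adjusted p = 0.00336).

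Zwint, which binds KNL1 and helps to bring the ROD, ZW10 and ZWILCH complex to the kinetochore (ENSMUSG00000019923, chr10:72654845-72674964 on the plus strand), was the single gene of the 37 with a positive estimate. Zwint had 34.2, 29.2 and 38.3 FPKM in irradiated libraries against 25.2, 30.3 and 26.6 FPKM in control libraries. The lowest irradiated library lay below the highest control, so the groups overlapped. The log2 fold change was 0.30 (95% interval -0.05 to 0.66, adjusted p = 0.116), but it was -0.08 (adjusted p = 0.681) after median-ratio scaling, and relative to the median of all genes it was -0.10. Zwint ranked 1 of the 37 genes in irradiated thymus and 5 in control thymus. It made up 18.9% to 26.5% of the summed FPKM of the 37 genes in irradiated libraries, against 4.12% to 5.22% in control libraries.

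**Figure D2:**
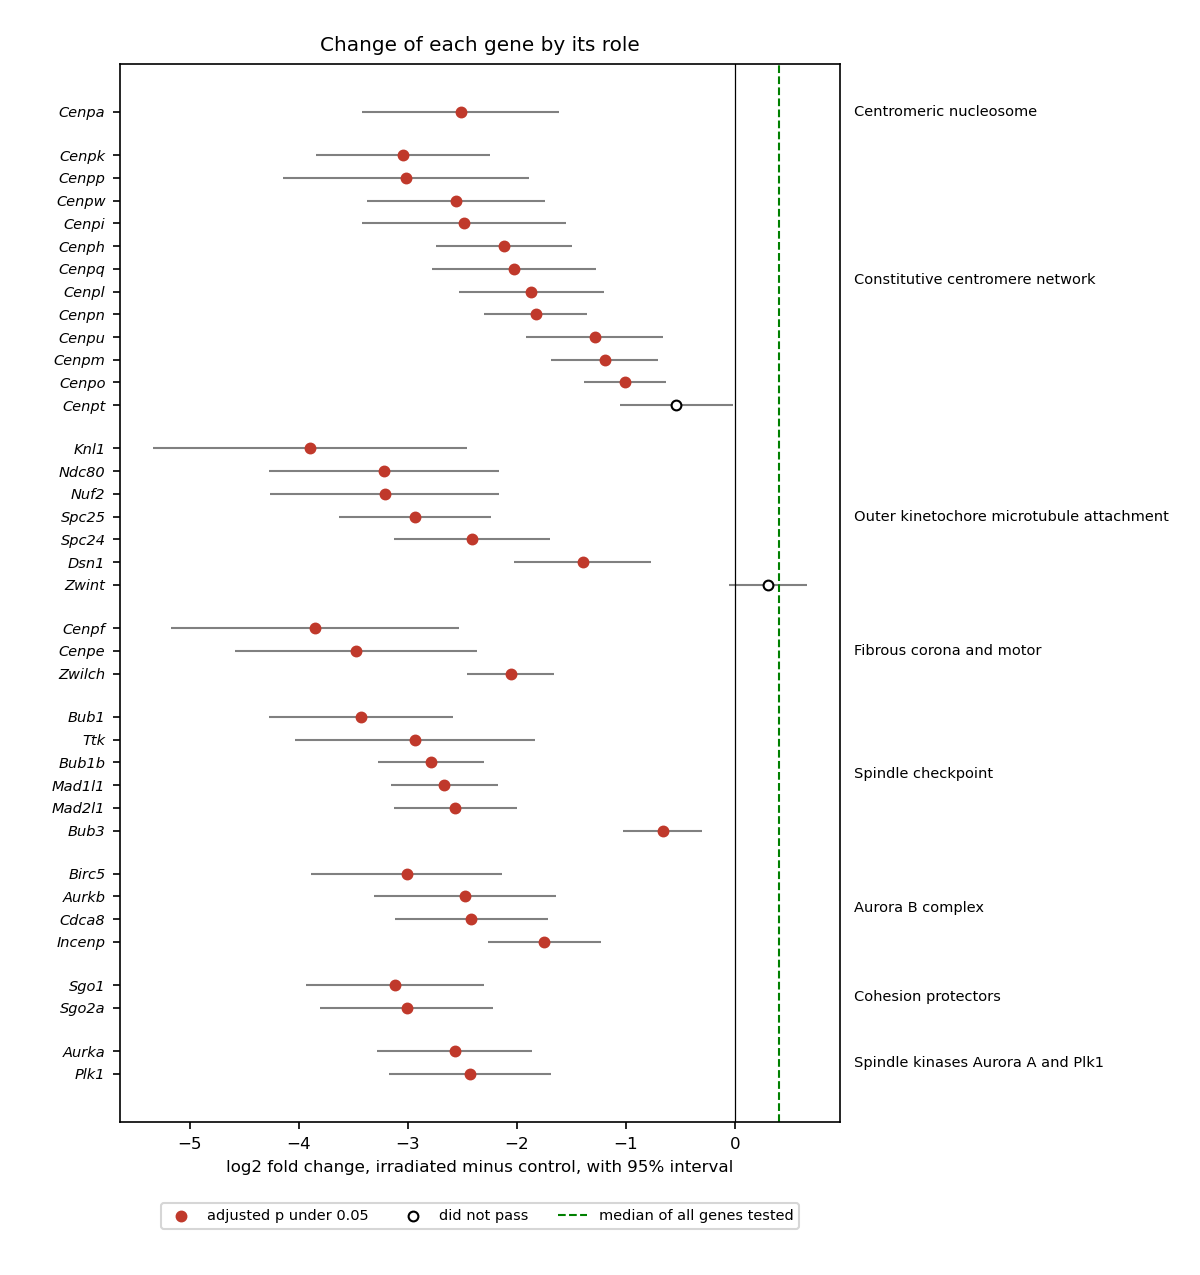
Log2 fold change (irradiated minus control) of each gene with its 95% interval, grouped by role; filled points passed at an adjusted p under 0.05, open points did not, and the dashed green line is the median of all genes tested, 0.40. All points except Cenpt and Zwint are filled and lie left of 0; Zwint's estimate of 0.30 becomes -0.08 after median-ratio scaling.

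The fibrous corona, the outermost layer that forms on unattached kinetochores, fell in 3 of 3 genes, beside 20.9% of all genes tested. The median of these genes was -3.48. Cenpe, a kinesin motor that carries chromosomes toward the spindle equator, had 2.71, 0.650 and 0.919 FPKM in irradiated libraries against 17.4, 13.8 and 12.1 FPKM in control libraries and fell by 3.48 (SE 0.47). Cenpf, a large coiled-coil protein of the corona, had 3.13, 0.526 and 0.854 FPKM in irradiated libraries against 21.2, 17.4 and 15.5 FPKM in control libraries. Its log2 fold change of -3.85 ± 0.56 (SE, adjusted p = 0.00105) was next to that of Knl1. Zwilch, a subunit of the complex that brings dynein to kinetochores, had the tightest irradiated values of the 37 genes on the log2 scale. Zwilch had 2.15, 1.80 and 1.94 FPKM in irradiated libraries against 8.87, 9.003 and 7.62 FPKM in control libraries and fell by 2.06 (SE 0.17, adjusted p = 0.000129).

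The 6 spindle checkpoint genes were all lower, beside 20.9% of all genes tested, and their median was -2.73. Bub1, the kinase that docks on KNL1 and phosphorylates centromeric histone H2A, had 3.16, 1.30 and 1.26 FPKM in irradiated libraries against 23.8, 19.0 and 16.7 FPKM in control libraries and fell by 3.43 (SE 0.36, adjusted p = 0.000271). Bub1b, which encodes BUBR1 of the mitotic checkpoint complex, had the smallest adjusted p of the 37 genes, 9.44e-05. It had 4.86, 2.88 and 3.98 FPKM in irradiated libraries against 28.8, 27.7 and 24.5 FPKM in control libraries, a log2 fold change of -2.79 ± 0.21 (SE). Its promoter window, printed above, holds both CHR forms and a CCAAT box. Ttk, the kinase MPS1 that starts checkpoint signalling, fell by 2.93 (SE 0.47) with irradiated values of 0.455 to 2.02 FPKM against 6.98 to 10.1 FPKM in control libraries.

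Mad1l1 and Mad2l1 encode the pair that turns an unattached kinetochore into an anaphase block. Mad1l1 had 5.17, 5.70 and 7.28 FPKM in irradiated libraries against 31.8, 36.9 and 48.7 FPKM in control libraries and fell by 2.66 (SE 0.21, adjusted p = 0.000108). Here irradiated replicate 1 was the lowest of its group and control replicate 3 the highest of its group, the opposite of most of the 37 genes. Mad2l1 had 6.01, 3.40 and 4.11 FPKM in irradiated libraries against 30.5, 27.7 and 21.7 FPKM in control libraries and fell by 2.56 (SE 0.24). Mad1l1 ranked 2 of the 37 genes in control thymus.

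Bub3, which carries BUB1 and BUBR1 to KNL1, had the smallest fall among the genes that passed (ENSMUSG00000066979, chr7:131560222-131571895 on the plus strand). Bub3 had 16.4, 19.0 and 20.03 FPKM in irradiated libraries against 30.5, 32.7 and 25.1 FPKM in control libraries, without overlap. The log2 fold change was -0.66 ± 0.15 (SE, adjusted p = 0.00779). Bub3 made up 9.10% to 17.2% of the summed FPKM of the 37 genes in irradiated libraries, against 4.65% to 5.64% in control libraries. Together with Zwint it ranked highest in irradiated thymus, at 18.5 ± 1.85 FPKM for Bub3 and 33.9 ± 4.56 FPKM for Zwint, while the third gene, Cenpa, was at 7.67 ± 4.92 FPKM (SD, n = 3).

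The 4 genes of the chromosomal passenger complex, in which Aurora B corrects faulty attachments, were all lower, beside 20.9% of all genes tested. Their median was -2.45. Birc5, or survivin, had 5.79, 1.86 and 3.95 FPKM in irradiated libraries against 31.4, 27.9 and 27.6 FPKM in control libraries and fell by 3.01 (SE 0.37). Aurkb, the kinase, had 5.34, 1.94 and 2.35 FPKM in irradiated libraries against 18.01, 16.8 and 15.1 FPKM in control libraries and fell by 2.47 (SE 0.35). The fall of Cdca8, or borealin, was close to that of Aurkb at 2.42 (SE 0.30). Incenp, the scaffold of the complex, had 7.74, 4.87 and 8.34 FPKM in irradiated libraries against 25.2, 23.1 and 21.2 FPKM in control libraries and fell by 1.75 (SE 0.22, adjusted p = 0.000582). Incenp was the gene of this complex with the highest irradiated level.

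Both shugoshins, which shield centromeric cohesion, were lower, beside 20.9% of all genes tested. Sgo1, with a CCAAT box and a TTCGAA just after the start in the window above, had 1.48, 0.605 and 0.622 FPKM in irradiated libraries against 9.25, 7.55 and 7.26 FPKM in control libraries and fell by 3.12 (SE 0.35). Sgo2a had 1.73, 0.737 and 0.809 FPKM in irradiated libraries against 10.7, 8.76 and 7.50 FPKM in control libraries and fell by 3.01 (SE 0.34). Its near copy Sgo2b was at 0, 0.0103 and 0 FPKM in irradiated libraries and at 0 in every control library. Of the spindle kinases, Aurka, which acts at spindle poles, had 3.84, 1.57 and 2.70 FPKM in irradiated libraries against 15.6, 16.1 and 15.1 FPKM in control libraries and fell by 2.57 (SE 0.30). Plk1, which acts at centrosomes and kinetochores, fell by 2.43 (SE 0.32), with 3.76, 1.49 and 2.85 FPKM in irradiated libraries against 14.4, 13.2 and 14.6 FPKM in control libraries.

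Because some partners moved by unlike amounts, their log2 ratios were compared within each library. These 6 pairs were chosen with the values known, and with 3 libraries a group the smallest p that a two-sided exact permutation test allows is 0.1. The Zwint to Knl1 log2 ratio was 4.48 ± 1.32 in irradiated libraries and 0.28 ± 0.25 in control libraries (SD, n = 3 each), a difference of 4.20 without overlap (exact p = 0.1, 0.12 adjusted over 6 pairs). The Bub3 to Bub1 ratio was 3.34 ± 0.86 in irradiated libraries and 0.57 ± 0.21 in control libraries, a difference of 2.77. The Cenpt to Ndc80 ratio differed by 2.68, the Cenpt to Cenpw ratio by 2.02 and the Cenpo to Cenpp ratio by 2.01, each without overlap and with the same exact p. The Mad1l1 to Mad2l1 ratio was 0.44 ± 0.57 in irradiated libraries and 0.54 ± 0.56 in control libraries, a difference of -0.10 with overlap (exact p = 0.9).

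The irradiated libraries differed from each other more than the control libraries did. The median gene of the 37 spanned 1.16 on the log2 scale between the highest and lowest irradiated library and 0.27 between the control libraries, where the median of all genes was 0.62 and 0.31. The median log2 difference from the control mean was -1.95 in irradiated replicate 1, -3.10 in irradiated replicate 2 and -2.44 in irradiated replicate 3. Irradiated replicate 1 was the highest of its group for 30 of the 37 genes, against 35.7% of all genes tested and 64.4% of the genes called lower. Irradiated replicate 2 was the lowest for 32 of 37, against 30.9% of all genes and 61.5% of those called lower. Control replicate 1 was the highest control for 23 of 37 and control replicate 3 the lowest for 28 of 37, against 30.8% and 23.4% of all genes. The order of the irradiated libraries in summed thymocyte markers was the same, with 353.0, 232.2 and 315.3 FPKM in irradiated replicates 1, 2 and 3. Irradiated replicate 2, which stood apart in erythroid, muscle and airway markers, was also the lowest here, and the part of those tissues in its values was not tested.

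**Figure D3:**
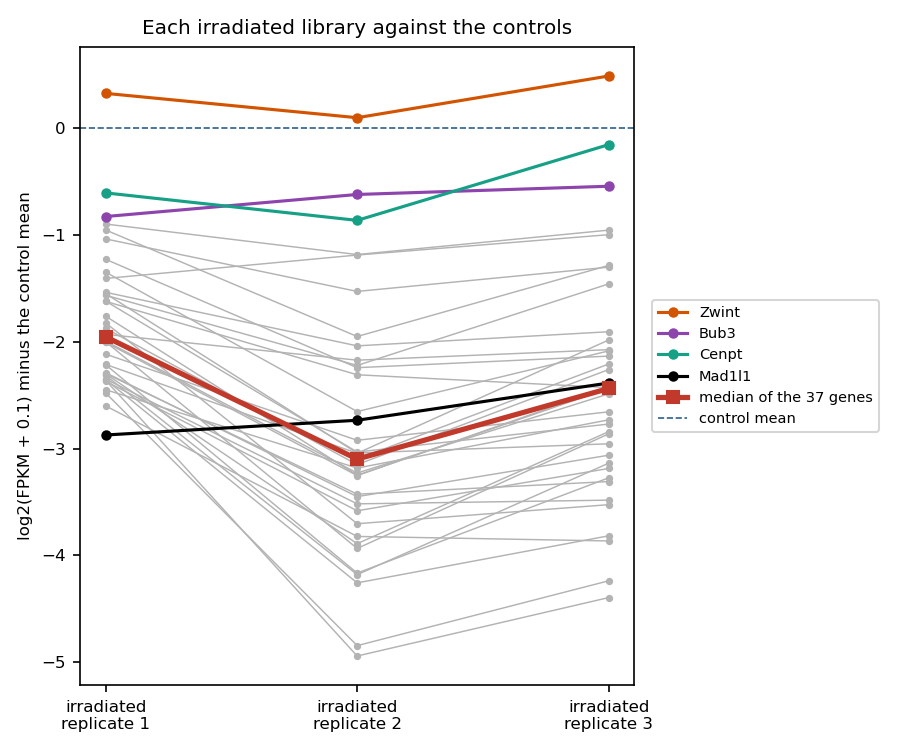
Difference of each irradiated library from the control mean for the 37 genes, in log2(FPKM + 0.1); each grey or coloured line joins the 3 values of 1 gene, and the thick red line is the median of -1.95, -3.10 and -2.44. Most lines are lowest at irradiated replicate 2, while Zwint, Bub3, Cenpt and Mad1l1 are drawn in colour, and of these Mad1l1 lies well below the control mean in each library.

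A second list of 35 kinetochore and centromere genes outside the 37 had 27 lower, 3 higher and 5 that did not pass, beside 20.9% lower and 42.4% higher over all genes. Of the 27, Ska1 averaged 0.450 FPKM in irradiated thymus and passed the filter only through the controls, so its call is a description. The median of the list was -2.07, which is -2.47 once the median of all genes is subtracted. The 4 with the smallest adjusted p were Spdl1, the dynein adaptor Spindly, Oip5, which takes part in CENP-A loading, Cdc20, the activator that the checkpoint inhibits, and Knstrn, a kinetochore microtubule binder. Cdc20 had 5.79, 2.73 and 4.80 FPKM in irradiated libraries against 25.8, 28.8 and 28.0 FPKM in control libraries, and the 4 genes fell by 2.77, 2.57, 2.67 and 1.96 in the order named. The 3 higher genes were Cenpb, which binds a repeat in centromeric DNA, Bod1, a factor in chromosome biorientation, and Cenpv. Cenpb had 21.7, 32.9 and 29.1 FPKM in irradiated libraries against 10.5, 11.5 and 13.3 FPKM in control libraries, a log2 fold change of 1.23 ± 0.19 (SE, adjusted p = 0.00134). Bod1 rose by 1.00 and Cenpv by 1.19, and Cenpv was no longer past the threshold after quantile normalization (0.29, adjusted p = 0.299). Mis12 (-0.85), Ndel1 (0.26), Mad2l1bp (-0.31), Cenpx (-0.41) and Clasp2 (0.10) did not pass. Of these, Mis12 was lower in 4 of 15 alternatives, with -1.41 (adjusted p = 0.0194) after quantile normalization, Mad2l1bp in 2, at -0.75 and -0.69, and Cenpx in 1, at -0.67 without irradiated replicate 1. The signs of Ndel1 and Clasp2 turned negative after median-ratio scaling.

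A further list held the anaphase-promoting complex, the ubiquitin ligase that the checkpoint restrains, and its regulators. Of 20 such genes 12 were lower, 2 were higher and 6 did not pass, where 20.9% of all genes were lower and 42.4% higher. Their median was -0.47, which is -0.87 once the median of all genes is subtracted. The smallest adjusted p values belonged to the genes for the protease separase (Espl1), the ubiquitin-conjugating enzymes Ube2s and Ube2c, and the inhibitor EMI1 (Fbxo5), which fell by 1.95, 1.25, 2.59 and 3.25. Pttg1, or securin, the inhibitor of separase, was higher, with 12.1, 27.6 and 25.6 FPKM in irradiated libraries against 5.80, 8.47 and 6.41 FPKM in control libraries. Its log2 fold change was 1.57 ± 0.33 (SE, adjusted p = 0.00513), without overlap. Anapc11, the catalytic RING subunit, was higher by 0.40 (adjusted p = 0.0226), but that call was lost in 8 of 15 alternatives, among them each other scaling. Anapc13 (0.48), Cdc16 (-0.35), Anapc1 (-0.32), Anapc10 (-0.48), Anapc2 (0.36) and Anapc16 (-0.39) did not pass. Each of these 6 did pass under some alternatives: Cdc16 was lower in 6 of 15, Anapc1, Anapc10 and Anapc16 were lower in 2 each, Anapc10 at -1.54 after quantile normalization, and Anapc13 (0.64, adjusted p = 0.00497) and Anapc2 (0.46, adjusted p = 0.0347) were higher without irradiated replicate 1. Anapc2 was -0.02 after median-ratio scaling.

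**Figure D4:**
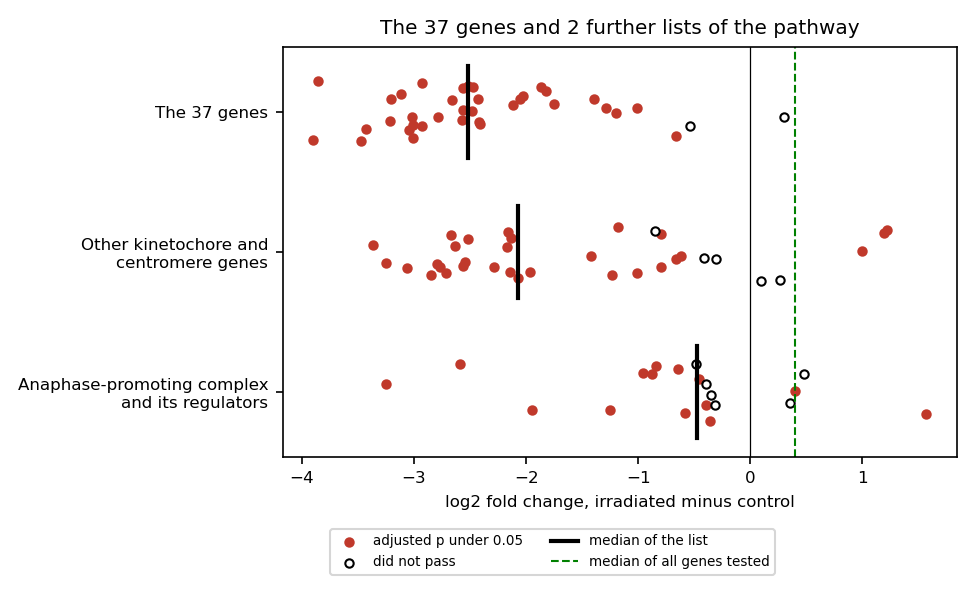
Log2 fold change (irradiated minus control) of every gene in 3 lists, with 1 point per gene; filled points passed at an adjusted p under 0.05, black bars are the list medians of -2.51, -2.07 and -0.47, and the dashed green line is the median of all genes, 0.40. Points to the right of 0 are few in each list, and under median-ratio scaling Zwint, Ndel1, Clasp2 and Anapc2 move to the left of it.

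The deposited lncRNA table lists noncoding transcripts of the same loci, mostly retained introns. It held 84 such transcripts of 34 of the 37 genes, 54 of them retained introns, 29 processed transcripts and 1 assembled by the authors, and listed none for Knl1, Plk1 and Cenpw. These transcripts share exon sequence with the mRNAs, so their values are not a separate count of molecules. The table was scaled apart from the mRNA table, and its median over all tested transcripts was -0.57. Of the 56 transcripts that averaged at least 0.5 FPKM, 41 averaged under 0.5 FPKM in irradiated thymus and so passed only through the control libraries. Of the other 15, 9 were lower and 0 higher, while 24.6% of all transcripts tested there were lower and 8.26% higher.

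The transcripts named here were chosen with their values known. A processed transcript of Mad1l1 (ENSMUST00000132832) had 0.291, 0.173 and 0.418 FPKM in irradiated libraries against 8.51, 9.81 and 13.5 FPKM in control libraries. It is one of those that passed the filter only through the controls, so these values are a description and no test is given. The Bub3 retained intron ENSMUST00000209131 had 3.43, 2.30 and 2.93 FPKM in irradiated libraries against 6.84, 11.1 and 9.06 FPKM in control libraries and fell by 1.60 (adjusted p = 0.00686). A second Bub3 retained intron, ENSMUST00000208848, which also passed the filter only through the controls, had 0.872, 0.172 and 0.382 FPKM in irradiated libraries against 4.44, 4.68 and 0.370 FPKM in control libraries, so the groups overlapped. The Cenpt retained intron ENSMUST00000212357 had 0.608, 0.519 and 0.484 FPKM in irradiated libraries against 1.55, 1.35 and 1.37 FPKM in control libraries and fell by 1.26 (adjusted p = 0.0125), though not after median-ratio scaling (-0.72, adjusted p = 0.0690) or without control replicate 1 (-1.20, adjusted p = 0.0534). The retained introns of Zwint overlapped between groups, at -0.56 and -0.52, and did not pass. Both were near 0 after median-ratio scaling, and both were lower without irradiated replicate 1, at -0.91 (adjusted p = 0.0367) for ENSMUST00000160128 and -0.82 (adjusted p = 0.0494) for ENSMUST00000163046.

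**Figure D5:**
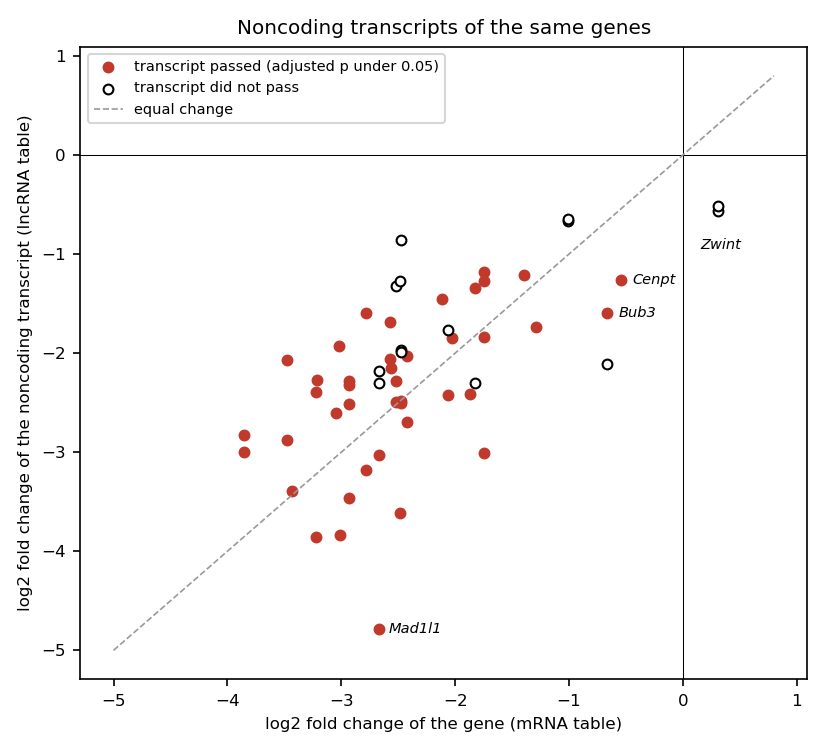
Log2 fold change of each of the 56 tested noncoding transcripts (lncRNA table) against that of its gene (mRNA table), irradiated minus control; filled points passed at an adjusted p under 0.05 and the dashed line marks equal change. The tables have medians of -0.57 and 0.40 over everything tested, so equal positions on both axes do not mean equal change, and 41 of the 56 transcripts passed the filter only through the control libraries.

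Some of these loci overlap a gene on the other strand, and whether the authors' counting used strand is not given in the sources used here. Exons of Kctd18 cover 35.0% of the exon bases of Sgo2a, Primpol 26.7% of Cenpu, Adcy3 19.0% of Cenpo and Ippk 12.3% of Cenpp. Without strand, reads from such a pair cannot be told apart. Adcy3 was higher, with 8.54, 12.4 and 9.33 FPKM in irradiated libraries against 5.79, 6.00 and 6.37 FPKM in control libraries, and Cenpo had the smallest fall among the genes of its network that passed. Primpol was lower by 0.50 (adjusted p = 0.0445), while Kctd18 at -0.43 and Ippk at -0.10 did not pass.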

How the data were processed

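RNA was extracted with TRIzol and poly(A) libraries were made with an NEBNext kit, per the labels' protocols. The deposited tables give the authors' FPKM per library, and the authors' log2 fold changes, p-values and adjusted p-values. The authors used DESeq2 1.10.1 for them, by the submitters' processing notes, and these values enter only where the authors' deposited table is named. How reads were aligned, counted and assigned to a strand is not given in the sources used here. Gene positions are from GENCODE M21 on GRCm38.

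The test was limma 3.58.1 in R 4.3.3 with an abundance trend, a group-only model and Benjamini-Hochberg adjustment over each table. Since the deposited values are FPKM, no count test was used. The mRNA table holds 21954 genes and 59179 transcript lines, each gene repeating 1 set of values. Depth was estimated from the smallest step of FPKM times length, and since FPKM is relative, a large change in some genes shifts the values of the others. Of the 53063 lncRNA lines, 62 with only overflow text were dropped. No 2 libraries shared a value above 0 in any gene. The fits were also run on simulated data with equal dispersion in both groups and few changed genes. That setting is unlike these data, so it does not show how the test behaves here.

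The 37 genes, the lists and the tests were chosen with earlier results of these data known. From the 2 further pathway lists, the 4 genes with the smallest adjusted p, those that passed against the direction of their list and those that did not pass are named, and marker lists are given as sums. Lists for B cells, endothelium and thymic epithelium had 2 of 6 lower, 7 of 8 higher and 7 of 10 higher, where 20.9% of all genes were lower and 42.4% higher. The thymic epithelium markers Ccl25, Prss16 and Psmb11 did not pass and had negative estimates of -1.37, -0.99 and -0.78. The endothelial genes Emcn, Flt1 and Tie1 averaged 0.213, 0.208 and 0.281 FPKM in control thymus. They passed the filter only through the irradiated libraries, so the endothelial count is a description. Printed 95% intervals are for the difference between the group means, with the SE from limma.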

Additional observations from a re-analysis of the deposited data

How the results depend on the processing

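The fit was repeated under 15 alternatives: other pseudocounts, low-value filters and scalings, no abundance trend, replicate number as a term, and each library left out. Of the 37 genes 35 to 36 were lower and 0 higher in each, and 551 of 555 single-gene results kept their direction and side of the threshold. The 4 others were Cenpt, which was also called after quantile normalization (-1.27), after median-ratio scaling (-0.92) and without irradiated replicate 3 (-0.73), and Zwint, which turned to -0.079 after median-ratio scaling. Without a library the median of the 37 genes lay between -2.84 and -2.21.

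With pseudocount 1 the median was -1.37 for the 35 other kinetochore and centromere genes and -0.95 for the noncoding transcripts. Quantile normalization gave 4403 genes lower and 3501 higher, and medians of -3.23 for the 37 genes and -2.97 for the 35. Median-ratio scaling gave 4558 genes lower, and it turned Anapc2 (-0.025), Ndel1 (-0.12), Clasp2 (-0.28, and -0.0027 after quantile normalization) and the Zwint retained introns ENSMUST00000160128 (0.0034) and ENSMUST00000163046 (0.029). The Bub3 retained intron ENSMUST00000208848 stood at -2.11 with all libraries and at -3.21 without control replicate 3. It passed the filter only through the controls, so these values are a description and no test is given. Of the anaphase-promoting list 1 gene, Pttg1, stayed higher after quantile normalization, median-ratio scaling, equal summed FPKM and the replicate block, and between 1 and 4 genes were higher without a library, with 4 without irradiated replicate 1. Of the noncoding transcripts, of which 42 were lower with all libraries, 24 to 51 were lower without a library, with 24 without control replicate 2 and 27 without control replicate 3, where 49 and 51 transcripts were tested. With all libraries 41 of the 56 transcripts tested, and all but 9 of the 42, had passed the filter only through the controls, and 24.6% of all transcripts tested were lower, so these counts are a description. The causes of these shifts were not tested.

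The labels do not say that a replicate number is shared. Deviations from the group means correlated across genes at 0.060, -0.043 and 0.052 between same-numbered libraries, so the numbers were not taken as pairs. Over the 37 genes alone the same correlations were 0.371, 0.151 and 0.209, while irradiated replicate 2 correlated more with control replicate 3 (0.281) than with control replicate 2. With the replicate block 35 of the 37 genes were lower, 2662 of all genes were lower and 5693 higher. With 3 libraries a group, FPKM without counts and low irradiated levels, small differences between the 37 genes may not be resolved.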
